A study of Mus musculus with 3 samples.

Results

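Liver gene expression after a high-fat diet (HFD) was compared with that on regular chow in C57BL/6 mice. Genes were the members of the comparison: those averaging 1 CPM or more in the pair of libraries were kept, 13167 of the 41799 genes listed. CPM is the read count of a gene scaled to 1000000 counts in its own library. All animals were male and 14 weeks old with free access to food. One group received regular chow and the other the HFD, and no knockout, transgene or drug is named for either. The remaining library, from HFD mice that also received DfCS-Ib (a compound known here by its code name) at 40 mg/kg, is quoted side by side for some genes and enters no count or ratio. The labels describe groups of 8 mice but not the diet's composition or length, nor how many livers entered a library, nor whether chow and HFD mice were gavaged as the DfCS-Ib mice were. Each group had 1 library, so no difference has a replicate check. All ratios compare these libraries, not the diets, and the bracketed ranges are 95% exact (Clopper-Pearson) intervals that cover counting error only.

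The liver takes up dietary fat, sugar and amino acids and decides between storing, exporting and burning them. Hepatocytes build cholesterol and fatty acids under the SREBP transcription factors, burn fatty acids under the fasting receptor PPAR alpha, and dispose of amino nitrogen through the urea cycle. The same cells make most plasma proteins, clear drugs and steroids, and respond to insulin, glucocorticoids, growth hormone and interferon, so a change of diet can be read in many gene groups at once.

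The chow, HFD and DfCS-Ib libraries held 11028671, 12279537 and 10969699 counts. They had at least 1 count for 19916 to 20283 genes. In the chow and HFD libraries 3 counts, the limit that a count of 0 allows for counting error alone, corresponded to 0.272 and 0.244 CPM. At the filter's edge lay Gm35575 and LOC102633000, left out with 13 and 10 counts in the chow and HFD libraries, and Lpar2 and Mir6936, kept with 5 and 19. The tissue label was checked against hepatocyte markers. Of 8 markers 7 were measured and their summed level was 129052 CPM in chow and 109129 CPM in HFD, with Alb alone at 110033 and 89104 CPM. Asgr1, another hepatocyte marker, was listed at 0 in both, as were several other liver genes, so a listed 0 does not show that a gene was silent.

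Most genes differed little between the chow and HFD libraries. The ratio was within 1.5-fold for 80.6% of the 13167 genes. A gene was counted as higher or lower when the log2 ratio, taken on CPM plus a pseudocount of 1, was at least 1 in size. By this rule 582 genes (4.42% of those measured) were higher in HFD and 245 (1.86%) were lower, and these 2 shares are the background for every count of list members given here. At 4-fold the numbers were 74 and 53, and at 8-fold 21 and 13. The median log2 ratio over all genes was 0.11, and the ratio was above 1 for 60.8% of genes. This shift depended on how the libraries were scaled, because it was 0.01 with TMM factors and 0.02 when the 50 most abundant genes were left out of the totals. List medians are therefore to be read against 0.11. Higher genes made up 70.4% of those counted, against 59.4% with TMM factors. Since whole liver was sequenced, a lower value from fewer cells of a type and one from less RNA per cell cannot be told apart.

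**Figure D1:**
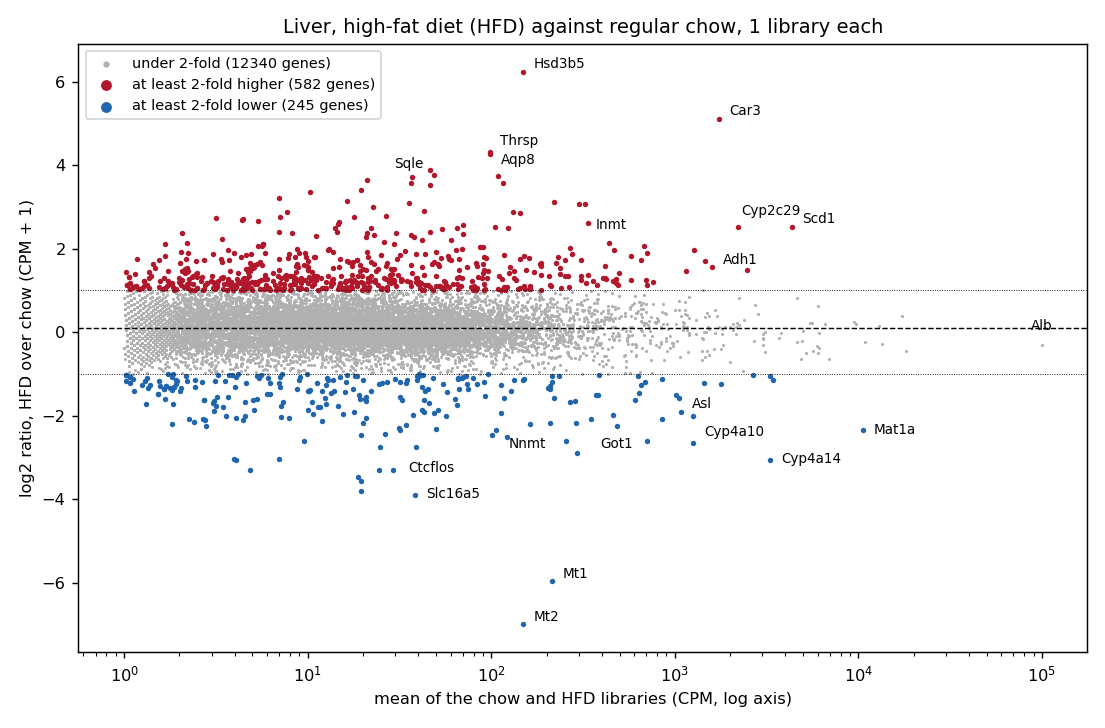
Each point is 1 of 13167 genes, with mean CPM of the chow and HFD libraries on a log axis and the log2 ratio of HFD to chow (CPM plus 1) on the vertical axis; the dashed line is the all-gene median of 0.11 and the dotted lines mark 2-fold. Most points lie between the dotted lines, and Hsd3b5 (log2 6.24) and Mt2 (log2 -7.01) lie farthest out.

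Abundant liver transcripts lost read share in the HFD library. Albumin took 11.003% of chow counts and 8.91% of HFD counts, and the 50 most abundant genes 39.0% and 34.5%. Over all measured genes the summed losses came to 151634 CPM, and the 10 largest made up 40.0% of them. The summed gains came to 151436 CPM, of which the 10 largest made up only 19.3%, so the gains were spread over more genes. Of the 117 genes averaging 1000 CPM or more, 12 (10.3%) were counted as lower and 8 (6.84%) as higher. The lower ones were Mat1a, Cth, Asl, Oat, Tat, Tdo2, Slc7a2 and Gm5424, all but the last with known roles in amino acid handling, and Pck1, Cyp4a14, Cyp4a10 and Ehhadh. The higher ones were Scd1, Car3, Cyp2c29, Fabp1, Gsta3, Adh1, Rn18s-rs5 and LOC101056014.

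Among the largest gains, Scd1, which encodes the enzyme that desaturates stearate, measured 1288, 7386 and 769.7 CPM in the chow, HFD and DfCS-Ib libraries (all triplets of values follow this order). The HFD library stood 5.74-fold (5.64 to 5.84) above chow. Car3, a cytosolic carbonic anhydrase, measured 96.8, 3369.7 and 509 CPM, or 34.8-fold (32.7 to 37.0) higher in HFD. Both genes were higher in the HFD library than in either of the others. Apoe, a ligand of lipoprotein receptors, gained 4516 CPM from 15109 CPM, which was only 1.30-fold (1.29 to 1.31). Apoa2, an apolipoprotein of high-density lipoprotein, and Ttr, the carrier of thyroxine, were 1.55-fold and 1.77-fold higher. Rn18s-rs5, a sequence related to ribosomal RNA, measured 1298, 3674 and 2097 CPM, and the share of reads from ribosomal RNA depends on library preparation, whose part here was not tested.

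On the side of the losses, Alb fell by 20928 CPM while its ratio was only 1.23-fold (1.23 to 1.24) lower. Mat1a, with the next largest loss and a far larger ratio, fell by 14163 CPM. Apob, the structural protein of very-low-density lipoprotein, was 1.36-fold (1.35 to 1.37) lower, complement C3 1.56-fold lower and the protease inhibitor gene Serpina3k 1.22-fold lower. The xenobiotic hydroxylase gene Cyp3a11 and the mitochondrial gene ND5, a subunit of complex I, were 1.56-fold and 1.42-fold lower. Apart from Mat1a, none of the genes named in this group passed 2-fold. All 8 measured protein genes of the mitochondrial genome stayed under 2-fold, with a median log2 ratio of -0.27.

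**Figure D2:**
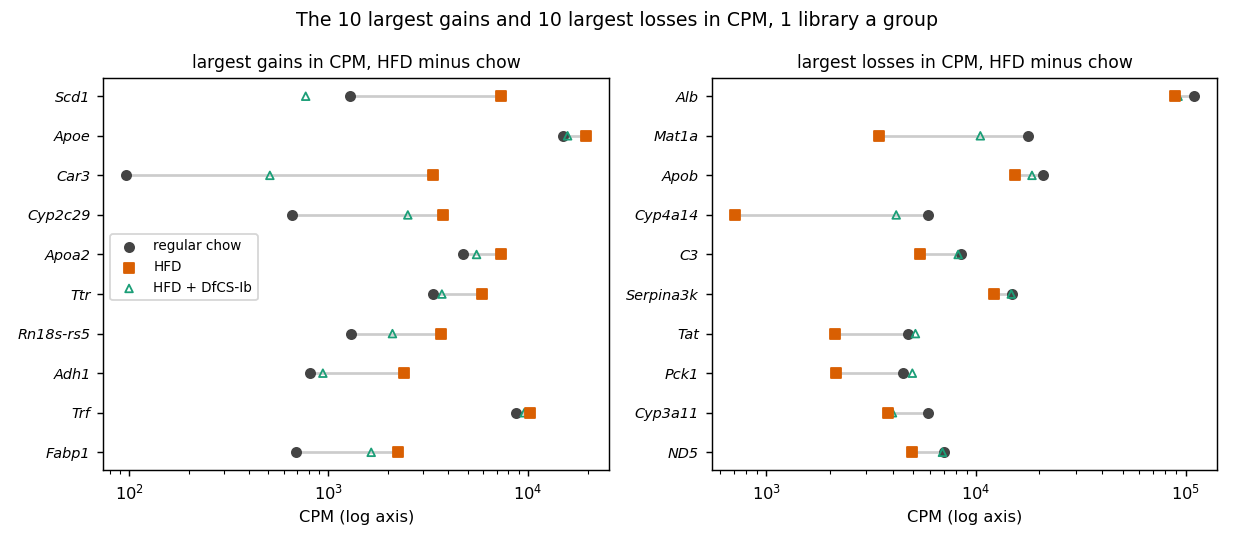
CPM in the chow, HFD and DfCS-Ib libraries for the 10 genes with the largest gain and the 10 with the largest loss between chow and HFD; each point is 1 library. Mat1a (17623 CPM in chow, 3460.2 in HFD) and Scd1 (1288 in chow, 7386 in HFD) show large ratios, whereas Alb and Apoe show large CPM differences with small ratios.

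Several genes of amino acid and nitrogen disposal were lower in the HFD library, and none of their 3 lists had a member counted as higher. In the list of amino acid catabolism 9 of 29 measured members were lower (median log2 ratio -0.21), in the urea cycle list 3 of 11 (median -0.76) and in the methionine cycle and one-carbon list 2 of 17 (median 0.05). The background for lower genes was 1.86%. Mat1a, the liver's S-adenosylmethionine synthetase (chr14:41105012-41124428, mm10), measured 17623, 3460.2 and 10475 CPM and was 5.09-fold (5.04 to 5.15) lower in HFD than in chow. Cth, which makes cysteine from cystathionine, measured 2005, 499 and 1029 CPM and was 4.02-fold (3.904 to 4.13) lower. For both, the chow library was the highest and the HFD library the lowest. The enzymes between them did not follow to this degree. Gnmt, which uses up S-adenosylmethionine, measured 2038, 2103 and 1759 CPM, and Cbs, which forms cystathionine, 582, 545 and 490.0 CPM. Ahcy, which clears S-adenosylhomocysteine, was 1.70-fold (1.63 to 1.77) lower, and Bhmt, which remethylates homocysteine with betaine, was 1.33-fold lower.

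A pair of methyltransferases that draw on the Mat1a product lay in opposite directions. Nnmt, which methylates nicotinamide, measured 441, 71.5 and 321 CPM and was 6.17-fold (5.74 to 6.63) lower in HFD. Inmt, which methylates indoleamines and related compounds, measured 94.3, 579.9 and 163 CPM and was 6.15-fold (5.76 to 6.57) higher. The DfCS-Ib library lay between the other libraries for both. These genes are in none of the lists and were picked out after their values were seen.

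In the urea cycle the members differed. Asl, argininosuccinate lyase, measured 1716, 458 and 1079 CPM and was 3.75-fold (3.64 to 3.87) lower in HFD. Ass1, the preceding enzyme, measured 954, 417 and 617 CPM and was 2.29-fold (2.21 to 2.37) lower. Arg1, arginase, at 3103, 1618 and 2332 CPM, was 1.92-fold (1.88 to 1.95) lower and did not reach 2-fold. Cps1, the entry step, was 2.15-fold (1.95 to 2.37) lower at 109, 50.7 and 76.3 CPM, but the files place this gene on a scaffold outside the main chromosomes and its reads may have been counted only in part. Otc, which makes citrulline in the mitochondria, had the opposite direction at 358, 554 and 501 CPM, or 1.55-fold (1.49 to 1.61) higher. Of 15 amino acid transporter genes 2 were lower and 1 higher, with a median of -0.12. Slc7a2, which imports arginine and lysine, measured 1576, 529.7 and 1678 CPM, and Slc25a47, a mitochondrial carrier found mainly in liver, 932, 341 and 945 CPM. The first was 2.98-fold (2.89 to 3.06) lower and the second 2.73-fold (2.64 to 2.83).

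The catabolic enzymes counted as lower act on many amino acids. Got1, cytosolic aspartate aminotransferase (chr19:43499752-43524605), measured 1216, 198 and 685 CPM and was 6.15-fold (5.88 to 6.42) lower in HFD. Aass, the first enzyme of lysine breakdown, measured 1377, 323 and 669 CPM and was 4.27-fold (4.12 to 4.42) lower. Both were lowest in the HFD library. Sds and its relative Sdsl, which deaminate serine, were 3.17-fold (2.997 to 3.35) and 4.99-fold (4.15 to 6.04) lower. Tat, which opens tyrosine breakdown and responds to glucocorticoids, was 2.23-fold (2.20 to 2.26) lower at 4753, 2132 and 5135 CPM, with the DfCS-Ib value above the chow value. Oat, ornithine aminotransferase, and Gpt2, mitochondrial alanine aminotransferase, were 2.32-fold and 2.08-fold lower.

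Tryptophan enzymes split. Tdo2, which opens the kynurenine pathway, was 2.04-fold (2.01 to 2.08) lower at 3562, 1744 and 3083 CPM, and Acmsd, which diverts the pathway from NAD synthesis, 3.95-fold (3.39 to 4.62) lower at 68.5, 17.3 and 58.6 CPM. Haao, the enzyme just upstream of that branch, was 1.97-fold (1.88 to 2.07) higher at 235, 464 and 296 CPM, a value just under the 2-fold rule. Kynu measured 347, 227 and 369.8 CPM. Hpd, of tyrosine breakdown, was 1.64-fold lower and was not counted. Asns, asparagine synthetase and a target of the amino acid sensor ATF4, was 4.32-fold (2.93 to 6.54) lower, while Chac1, another ATF4 target, was 6.51-fold (3.09 to 15.8) higher on 8 and 58 counts. The remaining 9 of 11 members of the ATF4 list were under 2-fold.

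**Figure D3:**
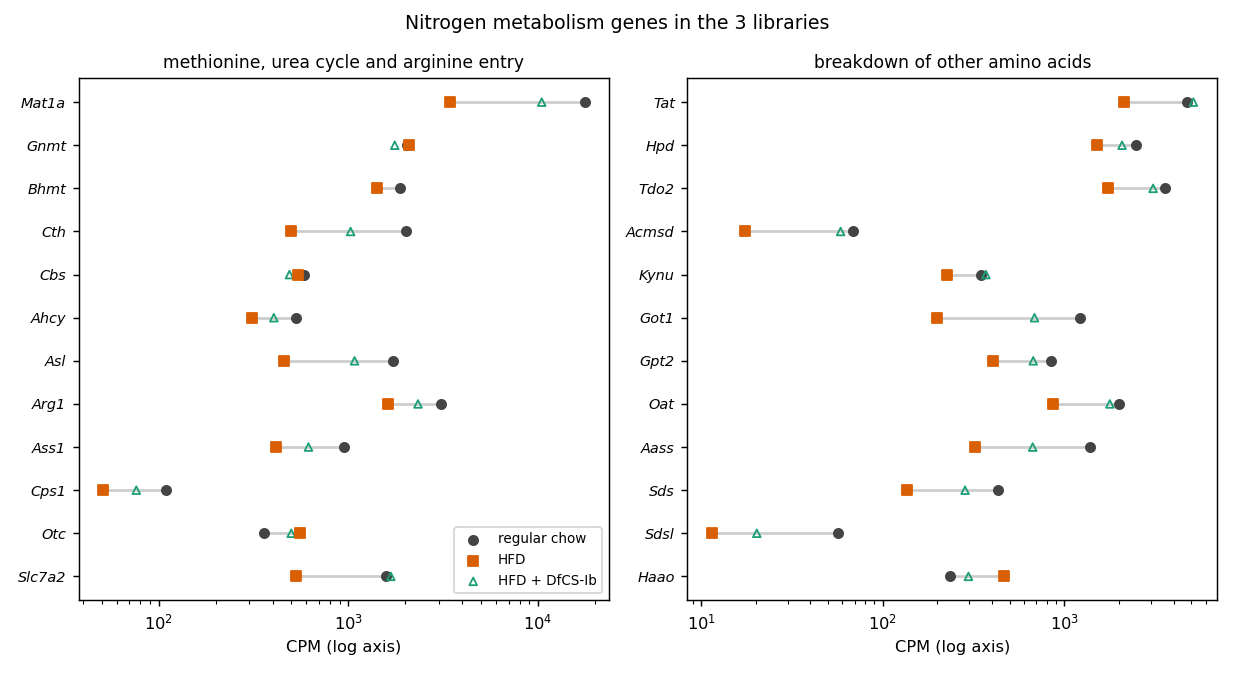
CPM on a log axis in the chow, HFD and DfCS-Ib libraries for 24 genes of the methionine, urea and amino acid pathways; each point is 1 library. The HFD point is lowest for Mat1a, Cth, Asl, Got1 and Aass, whereas for Otc and Haao the chow point is lowest.

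Across gene groups, 79 lists with 1144 measured genes were described by counts and medians. They held 222 of the 827 genes past 2-fold. Among the 70 lists with at least 6 measured members, the highest medians belonged to the sterol and lipogenic lists, and the lists of glucocorticoid-induced (-1.16) and PPAR alpha (-1.01) genes lay at the low end. The female-biased list was at -1.62 over the 10 of its 20 genes that passed the filter and at -0.13 with no filter. Several large housekeeping lists had 0 members counted in either direction. These were 75 ribosomal protein genes, 71 mitochondrial ribosomal protein genes and 77 nuclear genes of the respiratory chain. Their medians were 0.22, 0.32 and 0.25, above the all-gene median of 0.11. The ratio was above 1 for 64, 61 and 65 of them, against 60.8% of all genes.

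**Figure D4:**
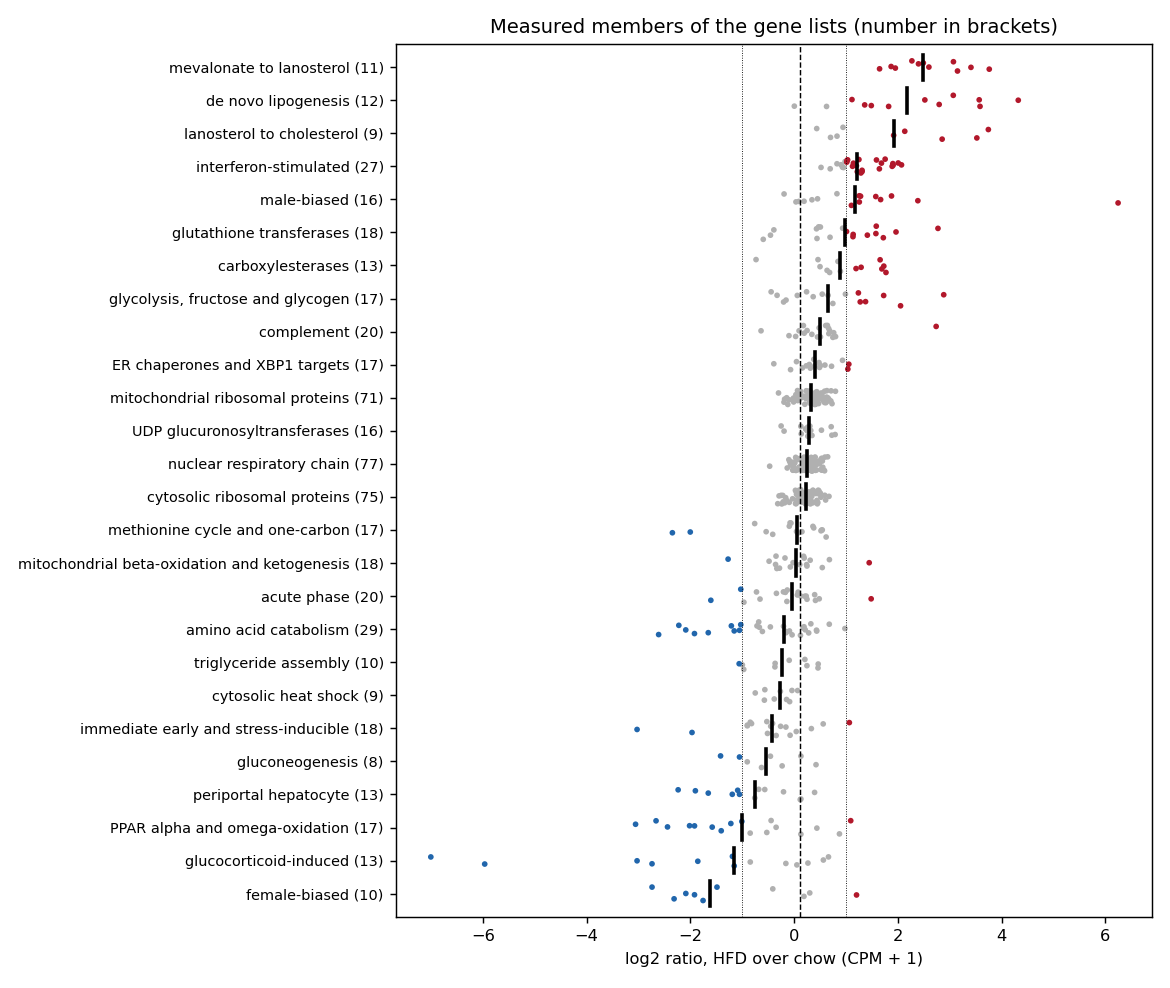
Log2 ratio of HFD to chow (CPM plus 1) for the measured members of 26 gene lists, sorted by median; each point is a gene, black bars are list medians, the dashed line is the all-gene median of 0.11 and dotted lines mark 2-fold. The list of mevalonate to lanosterol enzymes (median 2.49) lies wholly above the upper dotted line, and the female-biased list, with 10 of its 20 genes measured, has a median of -1.62 (-0.13 with no filter).

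The sterol pathway was higher at every step up to lanosterol: 11 of 11 measured members were higher in HFD (background 4.42%), with a median log2 ratio of 2.49. From lanosterol to cholesterol 5 of 9 were higher and the other 4 stayed under 2-fold, with a median of 1.92. Early in it, Hmgcs1, which condenses acetoacetyl-CoA to HMG-CoA, measured 68.5, 583 and 70.1 CPM and was 8.51-fold (7.89 to 9.18) higher in HFD. Its DfCS-Ib and chow values were close together and far from HFD. Mvd, which closes the mevalonate part, was 12.0-fold (8.14 to 18.3) higher at 2.54, 30.4 and 2.83 CPM. Cyp51, which demethylates lanosterol, and Sc5d, a late desaturase, were 7.40-fold and 4.40-fold higher.

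Of 13 genes of sterol sensing and uptake 5 were higher and 0 lower, with a median of 0.26. Stard4, which carries cholesterol inside the cell, measured 30.5, 178 and 47.4 CPM and was 5.85-fold (5.22 to 6.59) higher in HFD, the highest of the libraries. Of 12 genes of sterol efflux and lipoprotein remodelling only Pltp, the phospholipid transfer protein gene, was higher, by 2.64-fold (2.29 to 3.05).

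The promoter of Hmgcs1 is shown because this gene acts early in the pathway and its promoter holds the exact sterol regulatory element letters TCACNCCAC. RefSeq promoters (GRCm38.p6, the mm10 assembly) of 300 bases ran from 250 before to 50 after the start site. They were matched by gene ID number for 9518 of the measured genes, 12211 promoters in all. Both strands were searched. These letters were found in 1.24% of all promoters and in 1 of 8 promoters of the mevalonate list, that of Hmgcs1 itself. They were in 0 of 10 promoters from lanosterol to cholesterol and 0 of 12 of sterol sensing and uptake. The lipogenic list had 1 of 14, and the PPAR alpha and methionine lists 1 of 16 each. The 250 bases before the Hmgcs1 start (chr13:119690101-119690350, plus strand) read as follows, with the match in capitals.
Hmgcs1: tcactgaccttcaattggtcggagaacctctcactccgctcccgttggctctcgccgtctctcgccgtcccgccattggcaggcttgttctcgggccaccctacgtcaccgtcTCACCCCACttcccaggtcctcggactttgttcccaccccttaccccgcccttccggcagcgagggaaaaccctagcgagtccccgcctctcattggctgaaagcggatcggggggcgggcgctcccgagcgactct
The shorter letters CCAAT, found in 37.0% of all promoters, were in 6 of 8 promoters of the same list. They were in 8 of 10 promoters of the genes from lanosterol to cholesterol. They were not particular to the sterol lists, being in 10 of 16 promoters of the PPAR alpha list and 15 of 25 of amino acid catabolism. In the interferon-stimulated list they were in 6 of 19. A match is a description of letters and not a shown binding site.

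Genes that feed fatty acid synthesis were also higher, beyond the synthase steps themselves: 10 of 12 lipogenic genes were counted as higher, and both exceptions were acetyl-CoA carboxylases. Acaca, the cytosolic form that supplies malonyl-CoA for synthesis, measured 22.8, 35.8 and 12.9 CPM, or 1.56-fold (1.34 to 1.83). Acacb, the form that restrains mitochondrial import of fatty acids, was 65.9, 66.0 and 65.6 CPM. These values lay apart from those of Acly, which makes cytosolic acetyl-CoA from citrate and was 2.58-fold (2.41 to 2.76) higher, and of Acss2, which makes it from acetate and was 3.57-fold (3.29 to 3.88) higher. Of 7 genes of cytosolic NADPH supply 3 were higher: Me1 by 2.04-fold, Tkt by 2.08-fold and Idh1 by 2.35-fold. With TMM factors 1 of the 7 was. Among 11 elongases and desaturases 3 were higher, with Elovl3, a very long chain elongase, at 339, 811 and 593 CPM, and with TMM factors 1 was. Triglyceride assembly had 0 of 10 members higher and 1 lower, or 3 lower with TMM factors. Lpin1, a phosphatidate phosphatase and coactivator, was 2.09-fold (1.97 to 2.22) lower at 290.2, 139 and 494 CPM, and Lpin2 was 1.96-fold lower.

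In carbohydrate handling, 6 of 17 genes of glycolysis, fructose and glycogen were higher and 0 lower. Slc2a2, the liver glucose transporter, measured 117, 389 and 159.8 CPM and was 3.33-fold (3.13 to 3.54) higher in HFD. Khk, which phosphorylates fructose, measured 186, 483 and 203 CPM and was 2.60-fold (2.48 to 2.74) higher. The HFD library was the highest for both. Pygl, which breaks glycogen down, and Ppp1r3c, which targets a phosphatase to glycogen, were 2.42-fold and 2.39-fold higher. In gluconeogenesis 2 of 8 genes were lower: Pck1, and Ppargc1a, a coactivator of the fasting response, by 2.82-fold (2.32 to 3.45).

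Genes of fatty acid use differed among themselves. Of 17 PPAR alpha and omega-oxidation genes 9 were lower and 1, Vnn1, a pantetheinase, was higher by 2.17-fold (1.90 to 2.48), but not with TMM factors. All 4 measured Cyp4a genes of the list and Acot1 to Acot4 were among the lower, and Cidec, a droplet protein, was the other. Of 18 genes of mitochondrial oxidation and ketogenesis 1 was lower (Cpt1a) and 1 higher, Bdh1, which interconverts the ketone bodies, at 90.9, 249.5 and 183 CPM and 2.74-fold (2.55 to 2.95). Peroxisomal oxidation had 1 of 15 lower, the bifunctional enzyme gene Ehhadh at 1492, 529 and 1099 CPM, or 2.82-fold (2.74 to 2.91), and 1 higher, the very long chain acyl-CoA transporter gene Abcd2, by 2.38-fold (2.00 to 2.84). In fatty acid uptake and activation 6 of 19 were higher, among them Dbi, the acyl-CoA binding protein gene, by 2.45-fold (2.35 to 2.57), and Acsl3, an acyl-CoA synthetase, by 3.41-fold (2.76 to 4.24). Slc27a1, a fatty acid transporter, was lower by 2.31-fold (1.80 to 2.99). Of 17 genes of lipid droplets and lipolysis 2 were higher and 4 lower (Plin4, Plin5, Cidec and Pnpla2), with a median of -0.16. Fitm1, which helps form droplets, was higher by 6.41-fold (4.95 to 8.42), and Pparg, the adipogenic receptor, by 2.69-fold (1.94 to 3.79).

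The metallothionein genes stood at the top of the lower side when protein-coding genes were ranked by the end of the interval nearest 1. Mt2 was read 3252 times in chow, 16 in HFD and 1396 in DfCS-Ib, and was 226-fold (139 to 396) lower in HFD than in chow. Mt1 had 4666, 71 and 2054 counts and was 73.2-fold (57.9 to 93.9) lower. Their products bind zinc and copper, and both genes are induced by metals and by glucocorticoids. The other 12 measured genes of the metallothionein and zinc list were under 2-fold, and the median of all 14 was -0.02. The median of the glucocorticoid-induced list was -1.16, and 4 of its 13 measured genes had a ratio above 1. Of the 13, 0 were counted as higher and 7 as lower. Besides Mt1, Mt2 and Tat they were Zbtb16, a transcriptional repressor, which was 3.75-fold (3.26 to 4.32) lower at 80.9, 21.6 and 116 CPM, Lepr, the leptin receptor gene, Gadd45b, a stress-inducible gene, and the clock repressor gene Per1. Zbtb16 was highest in DfCS-Ib. Egr1, an immediate early factor, was 4.70-fold (3.39 to 6.63) lower at 17.6, 3.75 and 43.8 CPM. Of 18 immediate early and stress-inducible genes 2 were counted as lower and 1 as higher, and 4 had a ratio above 1. With TMM factors 4 of the 18 were lower and 0 higher. The 9 measured cytosolic heat shock genes were all under 2-fold.

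Metal response elements have the core letters TGCACNC or TGCGCNC, which were found on either strand in 34.8% of all promoters. The promoters of Mt1 (chr8:94178839-94179088) and Mt2 (chr8:94172368-94172617), neighbours on the plus strand of chromosome 8, are shown because these genes head the lower side of that ranking. The 300-base windows held 3 and 4 matches, of which 1 and 3 lie in the 250 bases before the start, printed here with matches in capitals.
Mt1: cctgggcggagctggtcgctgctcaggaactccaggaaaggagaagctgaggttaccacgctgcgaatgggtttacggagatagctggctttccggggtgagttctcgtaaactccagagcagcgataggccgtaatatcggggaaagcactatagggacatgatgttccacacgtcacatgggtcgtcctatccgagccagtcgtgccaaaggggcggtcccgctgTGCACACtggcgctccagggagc
Mt2: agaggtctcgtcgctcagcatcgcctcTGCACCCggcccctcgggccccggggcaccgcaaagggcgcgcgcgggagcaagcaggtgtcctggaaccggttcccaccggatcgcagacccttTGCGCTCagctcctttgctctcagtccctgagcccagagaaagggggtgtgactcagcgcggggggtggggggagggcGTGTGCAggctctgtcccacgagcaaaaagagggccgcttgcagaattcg
The core is short and common, so its presence here is only a description of these sequences.

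Interferon-stimulated genes were higher in the HFD library: 20 of 27 measured members were counted, with a median of 1.22. All 27 had a ratio above 1, and with TMM factors 17 were counted. The whole list summed to 302 CPM in chow, 693 CPM in HFD and 628 CPM in DfCS-Ib. Irf7, which amplifies the interferon signal, was 2.41-fold (1.96 to 2.98) higher. Among 9 interferon-inducible GTPases 4 were higher. Iigp1, which attacks the membranes around parasites, measured 103, 361 and 353 CPM and was 3.49-fold (3.27 to 3.73) higher in HFD. Gbp7 was 3.48-fold (2.74 to 4.46) higher. For Iigp1 the DfCS-Ib library lay beside HFD and away from chow. In antigen presentation, Psmb10, an immunoproteasome subunit, and Psme1, a proteasome activator, were 2.26-fold and 2.05-fold higher. They were 2 of the 7 genes of class I presentation that were measured (1 of 7 with TMM factors), and the other 8 of the 15, H2-K1 and H2-D1 among them, were listed at 0 in both libraries.

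Interferon-stimulated response elements were searched on both strands as GAAA, any 2 bases and GAAA again. The letters were found in 3.02% of all promoters, in 9 of 19 promoters (47.4%) of the interferon-stimulated list and in 4 of 5 (80.0%) of the GTPases. Isg15 (chr4:156200819-156201068, minus strand), a ubiquitin-like modifier gene, had 16 counts in chow and 114 in HFD. Ifit1 (chr19:34640639-34640888, plus strand), whose product binds viral RNA, had 39 and 194. Both promoters are shown because they carry more than 1 match: in Isg15 there are 3 that overlap one another, and in Ifit1 there are 2 apart, read on the opposite strand.
Isg15: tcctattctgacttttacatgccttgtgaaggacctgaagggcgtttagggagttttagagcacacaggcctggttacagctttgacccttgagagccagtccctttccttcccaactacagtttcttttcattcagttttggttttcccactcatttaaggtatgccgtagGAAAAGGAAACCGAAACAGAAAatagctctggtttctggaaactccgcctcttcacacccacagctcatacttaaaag
Ifit1: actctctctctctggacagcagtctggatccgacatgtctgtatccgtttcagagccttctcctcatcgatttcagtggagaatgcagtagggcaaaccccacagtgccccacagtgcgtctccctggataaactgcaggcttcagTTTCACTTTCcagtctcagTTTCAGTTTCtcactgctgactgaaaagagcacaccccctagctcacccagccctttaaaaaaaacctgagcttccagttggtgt
The capitals mark the matched letters.

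Few other immune genes were counted. Markers of Kupffer cells and macrophages had 0 of 14 members past 2-fold, with a median of 0.35 and a summed level of 465, 630 and 987 CPM in the chow, HFD and DfCS-Ib libraries. Of 13 inflammation genes 1 was higher, Cxcl1, a neutrophil chemokine gene, on 2 and 24 counts, or 10.8-fold (2.68 to 94.1). The list's median of 0.29 turned to -0.20 when a mean of 5 CPM was required. In the acute phase list Saa4 was 2.82-fold (2.61 to 3.04) higher, and Il6ra, the interleukin 6 receptor gene, 3.11-fold (2.76 to 3.51) lower at 95.6, 30.7 and 105 CPM. Saa1, an acute phase protein gene, was 11.2, 15.1 and 467 CPM, so the high value was in the DfCS-Ib library and not in HFD. Markers of T and NK cells summed to 2.90 CPM in chow and 2.44 CPM in HFD, and none reached the filter. How far the numbers of immune cells moved with the interferon genes was not tested. Of 24 extracellular matrix genes 1 was higher, Col3a1, a fibrillar collagen gene, by 2.51-fold (2.01 to 3.16), and 1 lower, Ctgf, a matricellular growth factor gene, by 2.36-fold (2.02 to 2.77). Stellate cell markers had 0 of 8 past 2-fold.

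Sex-biased liver genes lay in opposite directions by class. Of 16 measured male-biased genes 9 were higher and 0 lower (median 1.18), and of 10 female-biased genes 6 were lower and 1 higher (median -1.62). The other 10 of 20 female-biased genes did not reach the filter, and without it the median was -0.13. Growth hormone pulses maintain the male pattern through STAT5 in liver, and all mice here were male. Hsd3b5, a steroid reductase gene of the male pattern, had 32, 3620 and 601 counts and was 102-fold (71.8 to 149) higher in HFD. Nudt7, a peroxisomal coenzyme A diphosphatase gene, measured 117, 433 and 195 CPM and was 3.69-fold (3.48 to 3.93) higher. Serpina12, the vaspin gene, measured 9.07, 51.5 and 23.9 CPM and was 5.69-fold (4.60 to 7.09) higher. In all 3 the DfCS-Ib library lay between chow and HFD. Mup17, a major urinary protein gene, had 11, 241 and 303 counts, but the Mup genes are near copies and their reads cannot be assigned with certainty. Other neighbours and relatives of Hsd3b5 were higher too, Hsd3b2 by 4.91-fold and Hsd3b3 by 5.75-fold (5.18 to 6.41), with the same limit.

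The growth hormone pathway itself was split, with 3 of 14 genes higher, 2 lower and a median of 0.08. The receptor gene Ghr measured 294, 664 and 409 CPM and was 2.26-fold (2.17 to 2.36) higher in HFD. Socs2, a feedback inhibitor of the receptor, measured 33.5, 6.68 and 10.1 CPM and was 5.01-fold (3.93 to 6.45) lower. Bcl6, a repressor that opposes STAT5 at many liver genes, measured 34.2, 7.41 and 9.75 CPM and was 4.61-fold (3.66 to 5.87) lower. For Socs2 and Bcl6 the DfCS-Ib library lay close to HFD, whereas for Cish, another feedback inhibitor, it did not: 9.34, 22.6 and 5.65 CPM. Onecut1, a hepatocyte transcription factor gene, was 4.15-fold (3.30 to 5.27) higher at 8.16, 33.9 and 6.65 CPM. Igf1, the main growth factor made in response to the hormone, measured 910.2, 575 and 629 CPM and stayed under 2-fold. The letters TTCNNNGAA of STAT sites, searched on both strands, were in 6.91% of all promoters, in 6 of 21 promoters (28.6%) of this list, in 0 of 11 of the male-biased list and in 2 of 5 (40.0%) of the interferon-inducible GTPases.

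Enzymes of detoxification were higher in several families and not in others. Of 18 glutathione transferase genes 9 were higher and 0 lower (median 0.97), and of 13 carboxylesterase genes 6 were higher and 0 lower (median 0.89). With TMM factors 8 of the 18 and 6 of the 13 were higher. None of the 16 UDP glucuronosyltransferase genes was counted (median 0.28). Adh1, the main alcohol dehydrogenase of liver (chr3:138277645-138290691), measured 809, 2384 and 939 CPM and was 2.95-fold (2.88 to 3.02) higher in HFD. Adh4, its neighbour, measured 64.9, 222 and 99.2 CPM and was 3.41-fold (3.14 to 3.71) higher. Both were lowest in chow. Gstt1, a theta class transferase, was 3.001-fold (2.80 to 3.22) higher and Gstm6, a mu class member, 3.37-fold (2.97 to 3.84). The carboxylesterases Ces1f and Ces2e, which cleave esters of drugs and lipids, were 3.33-fold (3.15 to 3.52) and 3.44-fold (3.18 to 3.73) higher. The glutathione transferase, carboxylesterase and Cyp2c genes are close copies, so a read may be credited to the wrong member.

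Among the cytochromes P450, 5 of 20 genes linked to the receptors CAR and PXR were higher and 1 lower, and the median was -0.07. All 5 were of the Cyp2b and Cyp2c families. Cyp1a2, the aryl hydrocarbon receptor target that clears caffeine, measured 252, 899 and 469 CPM and was 3.57-fold (3.42 to 3.72) higher in HFD. Genes of electron supply to these enzymes lay in opposite directions: Por, which feeds all microsomal cytochromes P450, was 3.95-fold (3.77 to 4.14) lower at 735, 186 and 885 CPM, and Cyb5r3, which reduces cytochrome b5, was 2.56-fold (2.43 to 2.70) higher at 172, 441 and 198 CPM. In retinoid handling Rdh11, a retinal reductase gene, was 4.07-fold (3.59 to 4.63) higher at 27.4, 111 and 21.9 CPM, and Cyp26b1, which breaks down retinoic acid, was 15.5-fold (10.54 to 23.6) lower. Aldh1a1, which makes retinoic acid, measured 955, 1910.2 and 1346 CPM.

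Transporters and hormone handling gave further differences. Of 11 bile acid and anion transporter genes 3 were higher and 1 lower. Slc22a7, an organic anion transporter gene, was 5.50-fold (4.27 to 7.19) higher at 6.35, 34.9 and 26.8 CPM, and Abcb11, the bile salt export pump, 2.40-fold (2.32 to 2.49) at 409, 981 and 576 CPM. Of 14 genes of bile acid synthesis 2 were higher, Hsd3b7, which acts early in the pathway, by 2.70-fold (2.59 to 2.81), and Cyp2c70. Cyp7a1, the rate-limiting enzyme gene, was lower (2 were lower with TMM factors), and the median was 0.09. In thyroid hormone handling 4 of 11 genes were higher, among them Dio1, which activates thyroxine, by 3.14-fold (2.84 to 3.48) at 43.8, 138 and 132 CPM, and Gpd2, a mitochondrial shuttle enzyme known as a thyroid hormone target, by 2.13-fold (1.86 to 2.45). Beyond Car3, the carbonic anhydrase genes Car5a and Car8 were 3.19-fold and 2.14-fold higher. Serpina6, which carries corticosterone in plasma, was 2.99-fold (2.67 to 3.35) higher at 36.8, 109.9 and 52.7 CPM.

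Few genes of coagulation, apolipoproteins and complement passed 2-fold. Of 22 coagulation genes 1 was higher, F11, coagulation factor XI, by 2.27-fold (2.03 to 2.55), and 1 lower, Pros1, protein S, by 2.43-fold (2.23 to 2.64). Of 14 apolipoprotein genes 1 was lower: Apoa4, a lipid-responsive apolipoprotein, at 921, 296 and 584 CPM and 3.11-fold (2.995 to 3.23). The complement list had a median of 0.49 (0.38 with TMM factors), and 18 of its 20 measured genes had a ratio above 1. Only 1 of the 20 was counted as higher. This was Cfd, complement factor D and also a marker of adipocytes, with 1 count in chow, 77 in HFD and 3 in DfCS-Ib, or 69.2-fold (12.0 to 2767). The other 4 adipocyte markers, Adipoq, Plin1, Lep and Retn, were not measured, and all 5 together summed to 0.0907 CPM in chow and 6.43 CPM in HFD. Cela1, an elastase and the only measured one of 6 pancreas markers, was 4.24-fold (2.95 to 6.26) higher. Lect2, a hepatokine, was 3.52-fold (3.07 to 4.05) higher.

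Zonal genes differed by class. Of 13 genes of periportal hepatocytes, which lie where blood enters the lobule, 6 were lower and 0 higher, with a median of -0.76. They are Sds, Pck1, Ass1, Asl, Cps1 and Etnppl, and 4 of them are in the lists of the urea cycle and amino acid catabolism. Of 14 pericentral genes 4 were higher (Cyp1a2, Lgr5, Gulo and Lect2) and 2 lower (Oat and Slc22a3), with a median of 0.03. With TMM factors 3 of the 14 were higher and 3 lower, with a median of -0.08. Gulo, which makes vitamin C, was 2.36-fold (2.25 to 2.47) higher at 213, 501 and 411 CPM, and Lgr5, a Wnt coreceptor, 2.25-fold (1.61 to 3.18) on 50 and 125 counts. Lyve1, a sinusoidal endothelial marker, was 2.15-fold (1.73 to 2.68) lower, and the other 9 endothelial markers were under 2-fold. Of the clock genes, 3 of 11 in the Dbp phase were lower and 1 of 6 in the Arntl phase was higher. Usp2, a deubiquitinase of the first group, was 4.36-fold (3.14 to 6.16) lower, and Npas2, a partner of Arntl, 3.63-fold (2.28 to 6.01) higher. The hour of sampling is not in the labels, and its part in these differences was not tested.

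Some genes past 2-fold lay side by side. Runs of at least 3 neighbouring measured genes past 2-fold in 1 direction numbered 20 on the higher side and 11 on the lower. Many were families of related copies: Acot1 to Acot4 (lower, chromosome 12), Cyp4a14, Cyp4a10, Cyp4a31 and Cyp4a32 (lower, chromosome 4), Hsd3b5, Hsd3b2, Hsd3b3 and Gm31825 (higher, chromosome 3), Ces1e, Ces1f and Ces1g, and Ces2c, Ces2e and Ces2g (higher, chromosome 8) and Adh1, Adh6-ps1 and Adh4 (higher, chromosome 3). Others were not families of copies. Nnmt, Zbtb16 and Gm32280 were lower on chromosome 9, Rhbdd2, Por and Tmem120a on chromosome 5, and Marveld3, Tat and Zfp612 on chromosome 8. Gm32280, with 28 and 1 counts in chow and HFD, lies inside Zbtb16 on the opposite strand. Genes that share position may also share reads, since strand was not stated.

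The longest run ended at Pck1, which encodes the cytosolic PEPCK that commits carbon to gluconeogenesis. It held 6 genes over 76.5 kb, Pck1 and genes upstream of it, all lower in HFD (chr2:173153073-173159254 for Pck1 itself). Pck1 measured 4470.4, 2152 and 4964 CPM and was 2.08-fold (2.05 to 2.11) lower. The non-coding genes upstream of it had larger ratios: Gm36691, at -4.68 kb from its start, had 497, 45 and 286 counts, or 12.3-fold (9.05 to 17.1) lower, and Gm36749, at -9.502 kb and overlapping it on the opposite strand, 370, 65 and 224, or 6.34-fold (4.86 to 8.38). Ctcfl, a testis paralogue of the insulator protein CTCF, was 3.88-fold (2.68 to 5.76) lower on 129 and 37 counts. LOC105244392, another gene of the run, spans Ctcfl on the opposite strand and Ctcflos on the same strand. Reads of these genes may be shared, so the members of the run are not all separate measurements. Within 400 kb of the Pck1 start 11 genes were measured. None of the 5 neighbours outside the run was counted as lower: Rae1, a nuclear export factor gene at -153 kb, had a log2 ratio of 0.04 and Pmepa1, 123 kb downstream, 0.07. Zbp1, an interferon-stimulated nucleic acid sensor gene 65.8 kb downstream, was higher at 1.31.

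**Figure D5:**
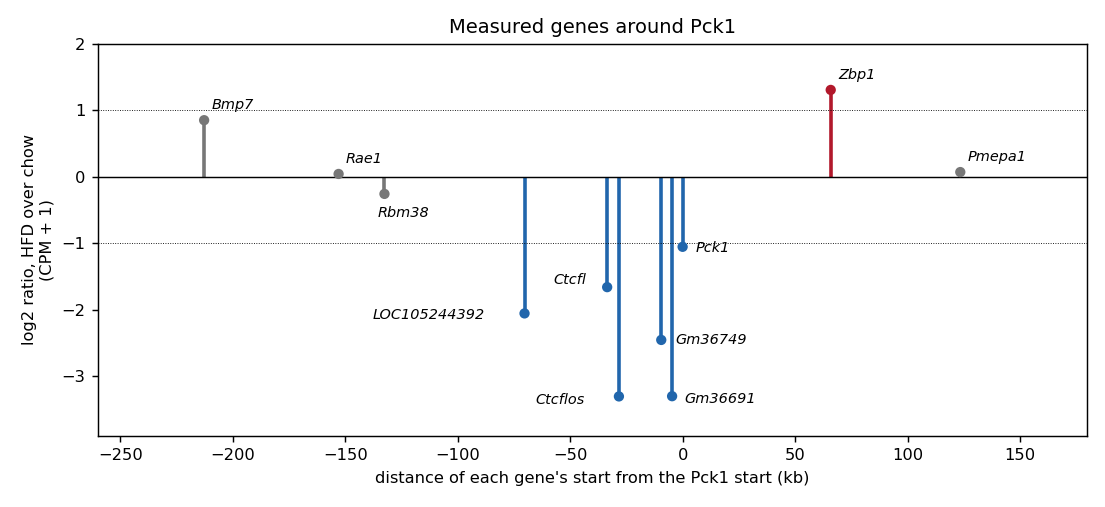
Log2 ratio of HFD to chow (CPM plus 1) of the 11 measured genes within 400 kb of the Pck1 start, against distance from that start in kb, with negative distances upstream; each point is a gene. The 6 genes of the run lie below -1, and Rae1 (0.04) and Pmepa1 (0.07) lie near 0.

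A similar arrangement was seen at Gfra1, a coreceptor for GDNF family ligands, on chromosome 19. Gfra1 measured 568, 198 and 529 CPM and was 2.87-fold (2.73 to 3.005) lower in HFD. Its neighbours LOC105246607 and Gm10007 were 2.66-fold (2.45 to 2.88) and 2.98-fold (2.21 to 4.06) lower. Both lie on the opposite strand and overlap Gfra1, Gm10007 inside it and LOC105246607 at its end, so where they overlap their reads cannot be told apart. E030018B13Rik, which overlaps Klf13 on the opposite strand, had 410, 21 and 75 counts and was 21.7-fold (14.0 to 35.5) lower. Klf13, a Krüppel-like factor gene, measured 36.0, 51.9 and 77.4 CPM and was not lower. Of all 13167 genes, 4721 overlap a gene on the opposite strand, and 286 of the 827 counted genes do.

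Among genes of other types, 44 of 886 long non-coding RNAs (4.97%) were counted as lower, beside 187 of 11410 protein-coding genes (1.64%), a difference that was not tested. The shares counted as higher were 5.53% and 4.33%. The largest ratios on the higher side included Serpina4-ps1, a serpin pseudogene, with 55 and 1084 counts, or 17.7-fold (13.5 to 23.7), and Gm36041, with 12 and 176. Cyp2c53-ps and Gm32468 were listed at 0 in chow and had 51 and 41 counts in HFD. On the lower side LOC105244673 had 106 counts in chow and 1 in HFD, or 118-fold (20.7 to 4705), and Gm32845 had 40 in chow and was listed at 0 in HFD. Gm11695, which overlaps Slc16a5 on the opposite strand, had 89 and 1 counts, or 99.1-fold (17.3 to 3957). Slc16a5, a monocarboxylate transporter gene, was 18.4-fold (13.8 to 25.0) lower, and their reads may be shared.

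Of the 127 genes past 4-fold, 65 were in none of the lists. The best counted of these, with at least 1000 counts in the higher library, were 15 genes, 8 higher and 7 lower, chosen after their values were seen. St3gal5, which makes the ganglioside GM3, measured 473, 104 and 622 CPM and was 4.53-fold (4.26 to 4.82) lower in HFD. Fam134b, a receptor for autophagy of the endoplasmic reticulum, measured 344, 75.003 and 307 CPM and was 4.59-fold (4.27 to 4.94) lower. Gpcpd1, a glycerophosphocholine phosphodiesterase, measured 269, 57.4 and 248 CPM and was 4.68-fold (4.31 to 5.09) lower. The DfCS-Ib library was near the chow value for Fam134b and Gpcpd1 and above it for St3gal5. Eif4ebp3, an inhibitor of cap-dependent translation, was 5.86-fold (5.29 to 6.51) lower at 208, 35.4 and 176 CPM, and Abhd2, a lipase gene, 5.66-fold (5.06 to 6.34) lower.

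On the higher side of these 15, Tsc22d1, a leucine zipper factor gene, measured 19.5, 121 and 27.3 CPM and was 6.22-fold (5.39 to 7.21) higher in HFD. Phlda1, a pleckstrin homology domain gene, measured 22.1, 118 and 86.1 CPM and was 5.32-fold (4.64 to 6.12) higher. Akr1c6, a steroid dehydrogenase gene, measured 263, 1097 and 799 CPM and was 4.18-fold (4.01 to 4.35) higher. DfCS-Ib lay near chow for Tsc22d1 and nearer HFD for the other pair. Myom1, a sarcomere protein gene, had 58, 4 and 45 counts and was 16.1-fold (5.98 to 61.2) lower, and none of the 5 skeletal muscle markers reached the filter (summed 0.544 CPM in chow and 0.733 CPM in HFD). LOC102635781, a predicted gene, had 6 and 165 counts, or 24.7-fold (11.1 to 68.3) higher.

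The ratio differed with gene length. Genes were put in 4 classes of like size by stated length. In the shortest class, up to 1936 bases, the median log2 ratio was 0.24 and 6.05% were higher. In the longest class, from 5178 bases, the median was -0.03 and 2.73% were higher. The shares counted as lower were 1.76% and 2.00% in the same classes. When each gene was centred on the median of its class, the median was 0.01 for the respiratory chain list, -0.01 for ribosomal proteins and 0.12 for mitochondrial ribosomal proteins, lists of short genes with uncentred medians of 0.25, 0.22 and 0.32. The list of amino acid catabolism moved from -0.21 to -0.45 and had 9 members lower. The list from mevalonate to lanosterol had 11 of 11 higher, with a median of 2.36. The glutathione transferase list had 6 of 18 higher after centring, against 9 before, with a median of 0.73. For 17 chaperones of the endoplasmic reticulum the 2 members higher with library totals, Pdia6 and Manf, at 2.08-fold (1.97 to 2.20) and 2.06-fold (1.92 to 2.21), were under 2-fold with TMM factors.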

How the data were processed

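Total RNA from mouse liver was sequenced, with 1 library for each of 3 groups and 1 sample a group. Each deposited file holds raw read counts and RPKM (counts scaled by gene length and library total) made by the authors, per the file headers. The submitters' processing notes name TopHat2 and mm10. How reads were counted, whether by strand, how reads with several placements were treated, and from which annotation, is not given in the sources used here, so near copies and overlapping genes are uncertain.

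Counts were divided by the total of their own library (11028671 for chow, 12279537 for HFD, 10969699 for DfCS-Ib) to give CPM, and joined on the gene identifier. Genes averaging 1 CPM or more in chow and HFD were kept. Log2 ratios were taken on CPM plus 1, which understates the ratio of genes with few reads. Folds are ratios of CPM without a pseudocount, with a 95% Clopper-Pearson interval from the split of the gene's counts. Intervals and floors take in counting error alone. With 1 library a group no test was made and no p-value is given. A gene was counted at a log2 ratio of 1 or more in size, and lists were described by counts and medians beside those of all genes.

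Named genes were the 15 higher and 15 lower protein-coding genes whose interval lay farthest from 1, the 10 largest gains and losses in CPM, the 5 higher and 5 lower genes of other types, and members of the lists, and some of them are not reported here. The members and lists were chosen with earlier results of these data known. The lists of ribosomal, respiratory chain and proteasome genes were set by symbol and cleared of kinases and assembly factors after their values were seen. Alternatives were TMM factors (edgeR 4.0.16 in R 4.3.3), totals without the 50 most abundant genes, the deposited RPKM, other filters, a pseudocount of 0.25 and the counting interval. Centring by length and thinning were chosen after seeing the data. Python 3.11.15 with numpy 2.4.6, pandas 2.3.3, scipy 1.17.1 and matplotlib 3.10.9 was used, and the scripts were tested on simulated data.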

Additional observations from a re-analysis of the deposited data

How the results depend on the processing

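No paired analysis was possible because each group has 1 library, and for the same reason no library could be left out. The share of higher genes among those past 2-fold, 70.4% with library totals, was 59.4% with TMM factors, 61.6% without the 50 most abundant genes, 61.9% from the authors' RPKM, 58.4% after centring on the median of its length class and 65.6% when the counting interval had to lie wholly past 2-fold. That last rule left 339 genes higher and 178 lower. With TMM factors 457 genes were higher and 312 lower, and without the 50 most abundant genes 589 and 367. The centring on length was chosen after seeing the data. The median of the inflammation list was -0.20 with a mean of at least 5 CPM, against 0.29, and the cause was not tested. Among the 58 genes named by rank, 48 were past 2-fold with library totals and under each of the other scalings tried, and none changed sign. These genes were picked for large ratios or CPM differences in the same libraries. The all-gene median moved only from 0.11 to 0.01 with TMM factors, so this outcome is no independent check. Members named from lists alone were not in this count, and some, such as Pdia6 and Manf, were not counted with TMM factors. Of 490 list medians under alternatives 477 lay within the rank interval of the list's median. That interval reflects the spread of a list's members and is wide for short lists, so it is a weak check. The larger lists of respiratory chain, ribosomal and mitochondrial ribosomal protein genes lay outside it with TMM factors. Their medians were then 0.14, 0.12 and 0.21. The medians of 16 of the 70 lists changed sign under at least 1 alternative, all of them within 0.29 of 0 with library totals. Depth limits genes near 1 CPM, and with 1 library a side the spread between animals is unknown.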
